A study of Homo sapiens with 6 samples.

Results

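The 10 genes described here encode the subunits of the condensin complexes and both forms of DNA topoisomerase II. They were chosen by gene symbol: every probe set annotated with SMC2, SMC4, NCAPD2, NCAPD3, NCAPG, NCAPG2, NCAPH, NCAPH2, TOP2A or TOP2B alone was taken. Probe sets annotated with several genes were left out. That gave 20 of the 54675 probe sets on the array, and 10 of the 19775 genes that have a probe set of their own. A probe set is a group of short oligonucleotide probes summarised as 1 signal, and each gene was represented by its probe set with the highest mean log2 signal.

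Condensin is a ring-shaped ATPase that loops and compacts DNA when a cell enters mitosis. Both of its forms share the SMC2 and SMC4 arms. Condensin I adds the kleisin NCAPH, which closes the ring, and the HEAT-repeat subunits NCAPD2 and NCAPG, and it reaches the chromosomes once the nuclear envelope has broken down. Condensin II adds NCAPH2, NCAPD3 and NCAPG2 and is held in the nucleus during interphase as well. Topoisomerase II passes one DNA duplex through another and so untangles sister chromatids. TOP2A is known as the form of dividing cells and acts with condensin on mitotic chromosomes, while TOP2B is also made by cells that no longer divide.

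The cells were WM-266.4, an established line from a metastatic human melanoma. They received 4 mixed siRNA duplexes targeting PIR (siPIR), the gene of the nuclear protein pirin, 4 mixed duplexes without a target (siCTR), or Oligofectamine with no oligonucleotide (NO), and were harvested after 72 h. All 3 groups went through the transfection procedure in medium without serum. RNA of 3 extractions was combined into 1 pool per group, and each labelled pool was hybridised to 2 Affymetrix HG-U133 Plus 2 arrays.

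The arrays of a pool are repeat hybridisations, so each group is 1 sample and the spread between its arrays holds hybridisation error only. Differences between pools have no replicate check, and precision is limited by how few arrays there were. Median signals ranged from 64.2 to 74.8 over the 6 arrays. PIR, which checks the labels, had signals of 392.3 and 381.5 in siPIR, 13543.7 and 13179.9 in siCTR, and 13990.2 and 14152.9 in NO. All 7 melanocyte lineage markers with a probe set (PMEL, MLANA, MITF, SOX10, TYR, TYRP1 and S100B) were above the detection cut used here.

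By their representative probe sets, most condensin genes and TOP2A were lower in the siPIR pool than in either control pool. TOP2B and the condensin II subunits NCAPD3 and NCAPH2 stayed within 2-fold by those probe sets. A gene was called lower when its pool means differed by at least 1 on the log2 scale (2-fold) and both siPIR arrays lay below both arrays of the control, against siCTR and against NO alike. By this rule 7 of the 10 members were called lower and 0 higher, while 3.20% of the 13053 measured genes were called lower and 1.47% higher. Against siCTR alone 7 members were called lower and 0 higher (4.21% and 3.66% of measured genes), and against NO alone 7 and 0 (5.40% and 3.60%). Both comparisons share the siPIR pool, so they are not independent. The median log2 difference of the members was -1.26 against siCTR and -1.28 against NO, and that of all measured genes was 0.05 and 0.03. Fewer cells in a given phase of the cycle and less RNA per cell cannot be told apart in these pools.

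All 10 members passed the detection cut (a mean signal above 70.2, the median of all values, in at least 1 pool), and all 10 passed it in every pool, so none entered only through a group where it was high. The lowest signal of a representative probe set on any array was 171.5. On the siPIR arrays all 10 members lay below both siCTR arrays (29.4% of measured genes did), 9 lay below both NO arrays (32.6%), and 9 lay below all arrays of both controls (23.1% of measured genes did).

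**Figure D1:**
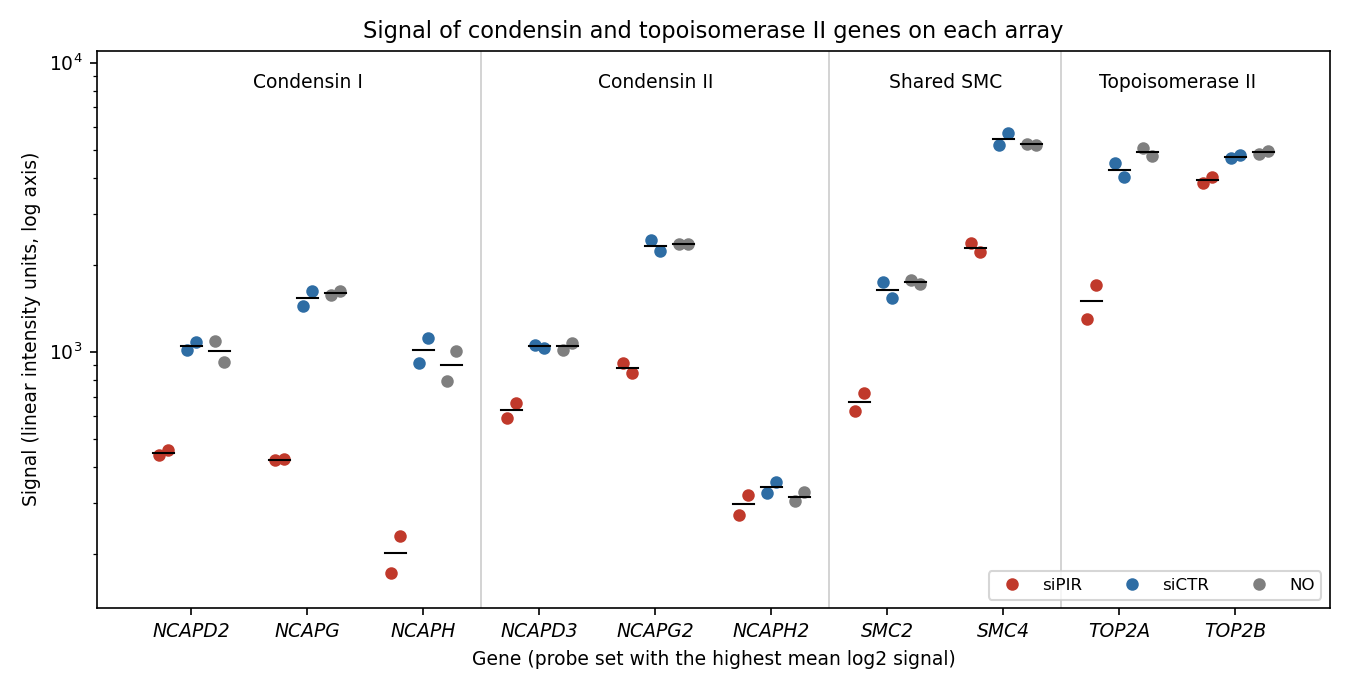
Signal of each gene's representative probe set on the 6 arrays (points), with the pool mean as a line, on a log axis in linear intensity units; siPIR is red, siCTR blue and NO grey. The siPIR points lie below all control points in every gene but NCAPH2, where they overlap the NO points. Heights of different genes are not comparable, since probe sets differ in brightness.

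Of the subunits found in condensin I alone, NCAPH and NCAPG had the lowest differences among the members' representative probe sets. As the mean over probe sets TOP2A (-1.84 and -1.97 against siCTR and NO) was lower than NCAPG (-1.81 and -1.87). That mean takes in TOP2A 237469_at, which was under the detection cut and differed by -2.03 and -2.36. The other TOP2A probe sets differed by -1.52 and -1.97 against siCTR, and by -1.72 and -1.81 against NO. Averaged without 237469_at, TOP2A would lie above NCAPG in both comparisons, so this order rests on that dim probe set. NCAPH, the kleisin, had signals of 171.5 and 229.7 in siPIR, 914.1 and 1112.6 in siCTR, and 793.4 and 1007.8 in NO. Both siPIR arrays were far below every control array, and the control pools overlapped each other. On the log2 scale siPIR was at -2.31 relative to siCTR, with the 4 array pairs spanning -2.66 to -1.97, and at -2.14 relative to NO (-2.52 to -1.76). Turned back from the log2 scale, it was 4.97-fold lower than in siCTR and 4.41-fold lower than in NO. Only 23 measured genes had a lower difference from siCTR than NCAPH, and 54 from NO.

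NCAPG, a HEAT-repeat subunit that holds DNA, had signals of 422.1 and 424.4 in siPIR, 1441.6 and 1616.8 in siCTR, and 1571.4 and 1621.7 in NO. The siPIR arrays nearly coincided and sat far below the 4 control arrays. Relative to siCTR the log2 difference came to -1.84 (-1.92 to -1.75, 3.57-fold lower), and relative to NO to -1.90 (-1.93 to -1.88, 3.74-fold lower). Its other probe set gave -1.79 and -1.84, so both NCAPG probe sets read alike.

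NCAPD2, the other HEAT-repeat subunit, differed least of the 3. It had signals of 438.9 and 455.4 in siPIR, 1013.8 and 1077.6 in siCTR, and 1085.6 and 918.5 in NO. The siPIR arrays were again below every control array, and the controls overlapped. NCAPD2 was at -1.22 relative to siCTR (-1.29 to -1.15, 2.32-fold lower) and at -1.15 relative to NO (-1.30 to -1.004, 2.22-fold lower). NCAPD2 rests on 1 probe set.

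Cell cycle genes are known to carry short shared elements in their promoters. Whether such elements bear on the differences was not tested. Promoter sequences of NCAPH, NCAPG and NCAPD2 are shown as a description only. They are RefSeq windows of GRCh38.p14, from 250 bases before to 50 bases after the transcript start, 5′ to 3′ on the gene's strand. Capitals mark each match to TTTGAA (the cell cycle homology region, CHR, bound by the MuvB core of the DREAM complex), TTTAAA (a variant CHR), CCAAT (the box bound by NF-Y) or GCGGGAA (an E2F site), on either strand. The window of NCAPH lies at chr2:96335516-96335815 on the plus strand, that of NCAPG at chr4:17810729-17811028 on the plus strand, and that of NCAPD2 at chr12:6493852-6494151 on the plus strand.
NCAPH: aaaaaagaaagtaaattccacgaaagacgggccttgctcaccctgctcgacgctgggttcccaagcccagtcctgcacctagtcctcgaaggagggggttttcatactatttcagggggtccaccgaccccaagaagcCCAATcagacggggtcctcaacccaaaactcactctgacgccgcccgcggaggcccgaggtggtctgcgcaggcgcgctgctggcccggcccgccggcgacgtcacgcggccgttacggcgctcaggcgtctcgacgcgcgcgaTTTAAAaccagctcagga
NCAPG: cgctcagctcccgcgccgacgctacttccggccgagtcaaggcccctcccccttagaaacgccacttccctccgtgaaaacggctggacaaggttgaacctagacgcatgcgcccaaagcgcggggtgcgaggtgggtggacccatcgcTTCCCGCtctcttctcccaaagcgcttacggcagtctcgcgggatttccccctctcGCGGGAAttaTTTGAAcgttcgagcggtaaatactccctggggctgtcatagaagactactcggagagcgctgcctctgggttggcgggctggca
NCAPD2: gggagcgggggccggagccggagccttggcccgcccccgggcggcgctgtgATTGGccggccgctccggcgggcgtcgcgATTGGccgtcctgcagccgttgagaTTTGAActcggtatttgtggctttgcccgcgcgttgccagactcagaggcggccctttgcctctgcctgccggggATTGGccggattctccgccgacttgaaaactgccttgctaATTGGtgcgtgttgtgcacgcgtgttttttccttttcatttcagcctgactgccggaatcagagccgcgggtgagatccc
NCAPG held TTTGAA with its first base 35 bases before the start, next to a GCGGGAA match at 45 bases before it. NCAPD2 held TTTGAA at 145 bases before the start and 4 CCAAT matches, all read on the opposite strand. NCAPH held no TTTGAA in this window, but TTTAAA began at base 33 after the start and 1 CCAAT match lay 112 bases before it.

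The subunits found in condensin II alone had unequal differences. NCAPG2, the condensin II counterpart of NCAPG, had signals of 910.6 and 843.9 in siPIR, 2431.4 and 2223.6 in siCTR, and 2359.1 and 2354.2 in NO. Its siPIR arrays were well below all control arrays. It was at -1.40 relative to siCTR (-1.52 to -1.28, 2.64-fold lower) and at -1.42 relative to NO (-1.48 to -1.37, 2.68-fold lower). NCAPG2 was the only condensin II subunit called by its representative probe set.

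NCAPD3, a HEAT-repeat subunit of condensin II, had signals of 591.8 and 665.9 in siPIR, 1054.4 and 1032.7 in siCTR, and 1014.2 and 1072.5 in NO. The siPIR arrays were separate from and below the control arrays, but by less than 2-fold. NCAPD3 was at -0.73 relative to siCTR (-0.83 to -0.63) and at -0.73 relative to NO (-0.85 to -0.60), which is 1.66-fold lower in both, and was not called.

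NCAPH2, the kleisin of condensin II, had signals of 272.4 and 320.0 in siPIR, 323.8 and 355.1 in siCTR, and 304.6 and 326.3 in NO. The siPIR and NO arrays overlapped, and the upper siPIR array lay just under the lower siCTR array. Relative to siCTR the gene was at -0.20 (-0.38 to -0.02) and relative to NO at -0.09 (-0.26 to 0.07), and without siPIR replicate 1 the difference from NO was 0.02.

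NCAPH2 has 5 probe sets, and they disagreed in size. The second, 209718_at, had dimmer signals of 61.3 and 122.3 in siPIR, 214.2 and 177.9 in siCTR, and 184.7 and 243.6 in NO. It differed by -1.12 against siCTR (-1.72 to -0.52) and by -1.24 against NO (-1.90 to -0.57) and met the rule for a call. The other 3 lay between -0.79 and -0.39 against siCTR and between -1.20 and -0.01 against NO, with siPIR arrays that overlapped those of siCTR in all 3. The size of the NCAPH2 difference thus depends on the probe set, and none of the 5 had a positive log2 difference of pool means.

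**Figure D2:**
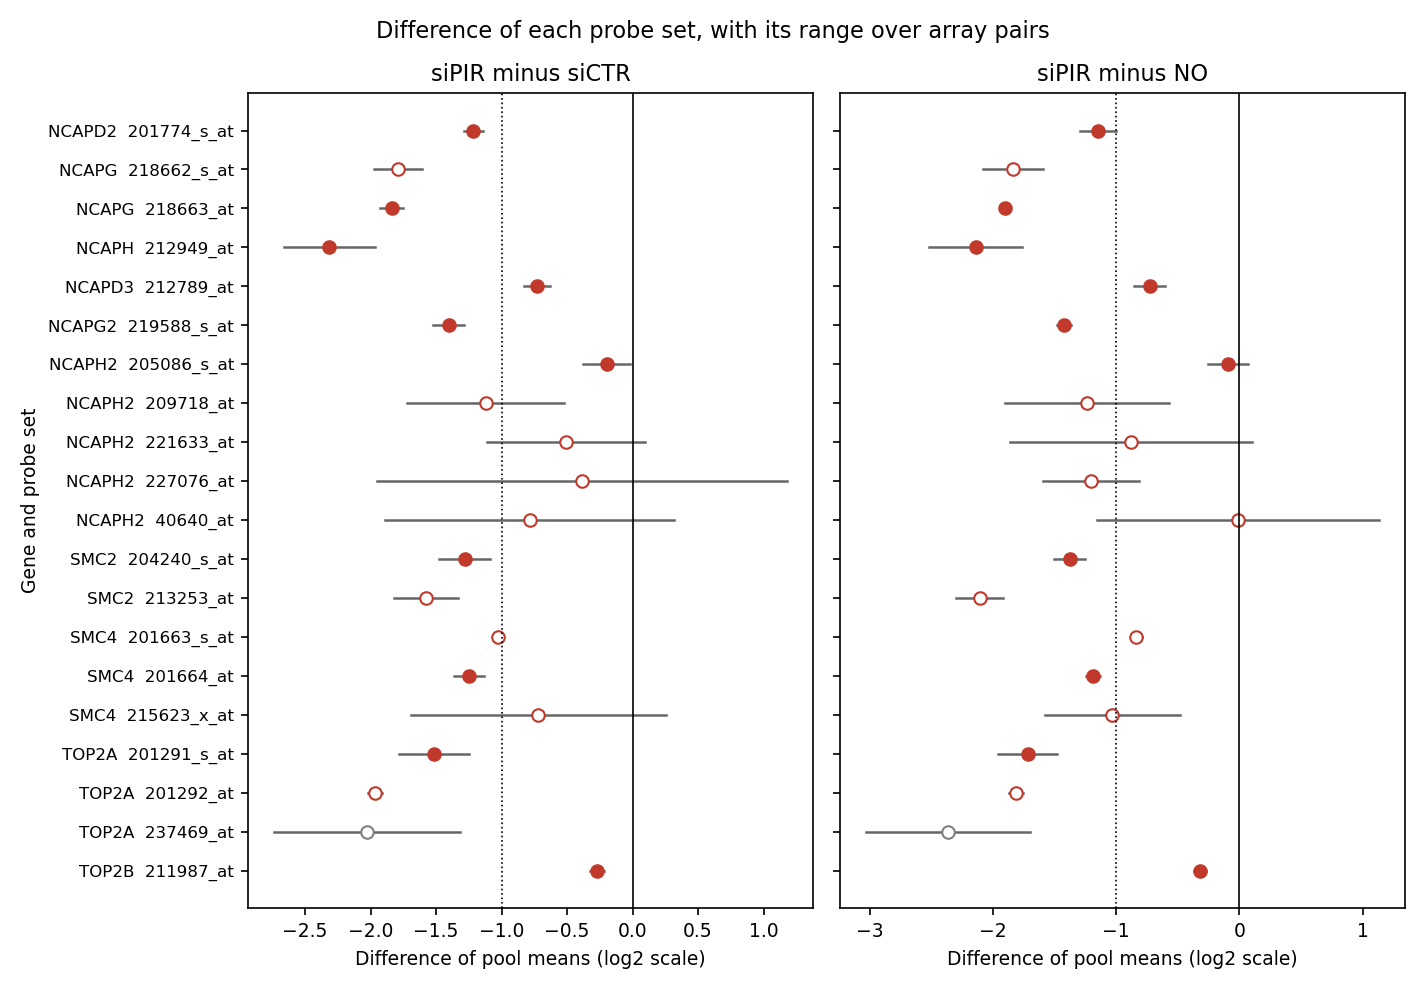
Difference of pool means on the log2 scale for all 20 probe sets, siPIR minus siCTR on the left and siPIR minus NO on the right; lines span the 4 pairs of arrays. Filled points represent a gene, open points are its other probe sets, grey outlines mark the probe set under the detection cut, and the dotted line is 2-fold lower. All 20 points lie below 0, and the wide lines belong to dim probe sets, mainly of NCAPH2.

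Both shared arms of the ring were called lower. SMC2 had signals of 624.5 and 719.0 in siPIR, 1749.1 and 1530.5 in siCTR, and 1777.7 and 1721.4 in NO. The siPIR arrays lay below all control arrays, putting SMC2 at -1.28 relative to siCTR (-1.48 to -1.08, 2.43-fold lower) and at -1.38 relative to NO (-1.50 to -1.25, 2.60-fold lower). Its second probe set, 213253_at, had larger differences, of -1.58 and -2.11, and was itself lower in siCTR than in NO by -0.53, with separate arrays.

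SMC4 had signals of 2371.2 and 2208.7 in siPIR, 5203.9 and 5694.3 in siCTR, and 5238.7 and 5189.4 in NO. The groups of arrays were again far apart, at -1.25 relative to siCTR (-1.36 to -1.13, 2.38-fold lower) and at -1.19 relative to NO (-1.24 to -1.13, 2.28-fold lower). A second bright probe set of SMC4, 201663_s_at, gave -1.02 and -0.84, and the second value misses 2-fold. A dim one, 215623_x_at, whose suffix marks probes that may bind other transcripts, gave -0.72 and -1.03 with overlapping siPIR and siCTR arrays. As the mean over its probe sets SMC4 differed by -0.997 from siCTR and was no longer called.

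TOP2A was called lower and TOP2B was not. TOP2A had signals of 1298.4 and 1701.0 in siPIR, 4490.1 and 4037.8 in siCTR, and 5054.8 and 4755.9 in NO. The siPIR arrays lay far below the control arrays, and the siCTR arrays lay below the NO arrays by a smaller step of -0.20. TOP2A was at -1.52 relative to siCTR (-1.79 to -1.24, 2.86-fold lower) and at -1.72 relative to NO (-1.96 to -1.48, 3.29-fold lower).

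A second probe set of TOP2A, 201292_at, had signals of 1213.0 and 1281.5 in siPIR, 4828.2 and 4944.4 in siCTR, and 4448.6 and 4350.1 in NO. It differed by -1.97 against siCTR and -1.81 against NO, and here the siCTR arrays lay above the NO arrays, by 0.15. The direction between the control pools therefore depends on the TOP2A probe set, while the direction of siPIR does not. Another, 237469_at, was under the detection cut, where siPIR averaged 5.80, siCTR 37.3 and NO 48.45.

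TOP2B had signals of 3843.6 and 4018.8 in siPIR, 4662.4 and 4810.1 in siCTR, and 4841.6 and 4961.8 in NO. The 3 pools did not overlap, yet the steps between them were small. TOP2B was at -0.27 relative to siCTR (-0.32 to -0.21, 1.205-fold lower) and at -0.32 relative to NO (-0.37 to -0.27, 1.247-fold lower). Of the measured genes, 24.1% had a lower difference from siCTR than TOP2B and 24.7% from NO.

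The promoter windows of the TOP2 genes are set side by side because one gene was called and the other was not. That of TOP2A lies at chr17:40417847-40418146 on the minus strand and the upstream one of TOP2B at chr3:25664858-25665157 on the minus strand, with capitals as above.
TOP2A: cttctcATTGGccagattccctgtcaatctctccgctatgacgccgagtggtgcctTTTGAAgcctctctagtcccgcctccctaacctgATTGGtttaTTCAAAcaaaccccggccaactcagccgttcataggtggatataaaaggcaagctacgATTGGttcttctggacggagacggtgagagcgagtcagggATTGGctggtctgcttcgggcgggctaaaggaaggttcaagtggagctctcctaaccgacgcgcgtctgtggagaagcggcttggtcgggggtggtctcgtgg
TOP2B: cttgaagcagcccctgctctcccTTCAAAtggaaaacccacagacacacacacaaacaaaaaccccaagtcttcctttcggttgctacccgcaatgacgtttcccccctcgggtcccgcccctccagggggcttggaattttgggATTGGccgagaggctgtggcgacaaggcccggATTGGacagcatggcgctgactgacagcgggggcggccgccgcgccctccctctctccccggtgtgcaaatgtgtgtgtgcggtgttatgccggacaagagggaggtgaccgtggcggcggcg
TOP2A held 2 TTTGAA and 4 CCAAT matches. The upstream window of TOP2B held 1 TTTGAA match, 227 bases before the start, and 2 CCAAT matches. Its downstream window held 0 matches to any of the motifs. TTTGAA and CCAAT were thus present in 1 window of the gene that was not called as well.

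Over the 9 members with a RefSeq window (13 windows, NCAPH2 having none in the table), TTTGAA was found in 8 genes, against 18.2% of all 27305 genes with windows. The member without it was NCAPH. CCAAT was found in 5 of the 9, against 39.7% of all genes, GCGGGAA in 2 of the 9 (NCAPG and NCAPD3), against 7.82%, and TTTAAA in 1, against 14.5%. Counted by window, TTTGAA was in 8 of 13, against 15.2% of all 35116 windows. The 26 matches did not overlap one another. TTTGAA began anywhere from 227 bases before the start (TOP2B) to base 36 after it (NCAPG2). The members not called, NCAPD3 and TOP2B, held it too, each in 1 of 2 windows, as did SMC2 and SMC4, which were called. These are matches of letters, and nothing here measured binding. The members and motifs were chosen with earlier results of these data known, so the shares are a description and test nothing.

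**Figure D3:**
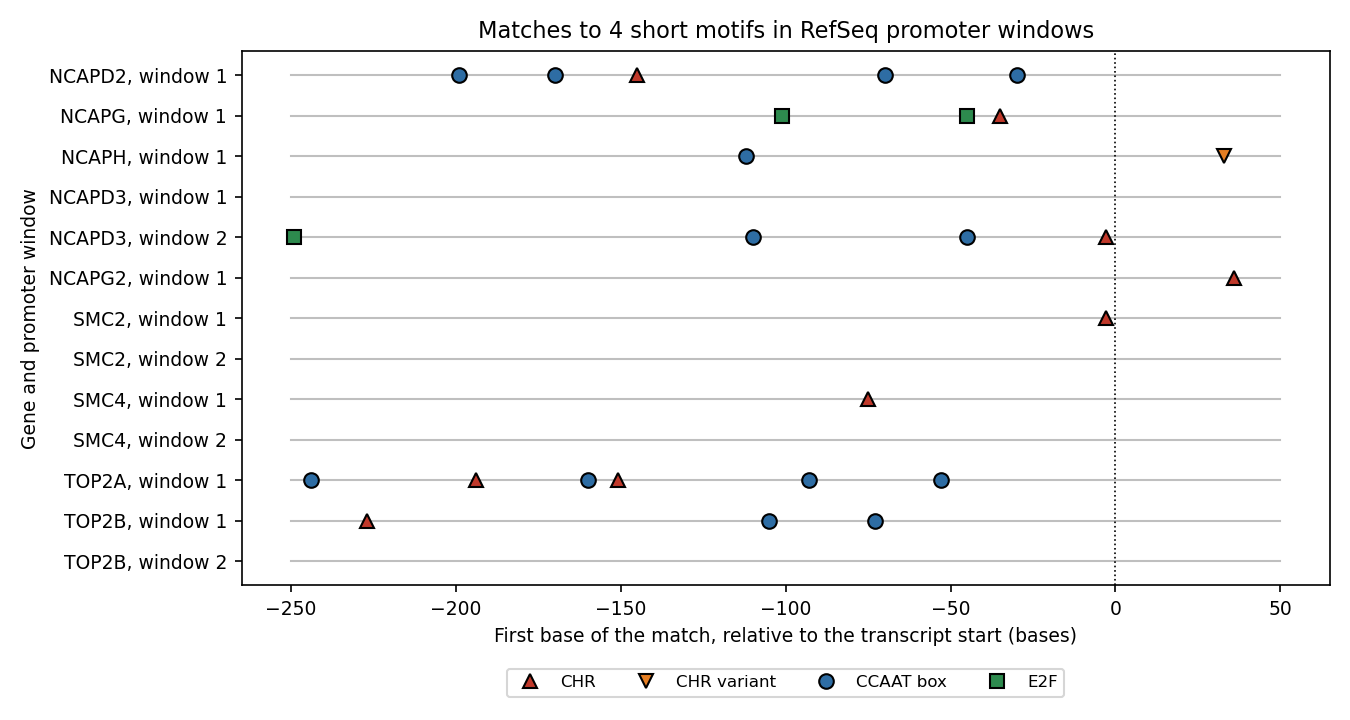
Position of each motif match in the 13 promoter windows of 9 members, as the distance of its first base from the transcript start in bases; windows of a gene are numbered from the upstream end. The motifs are those spelled out in the text, on either strand. CHR matches appear in 8 genes, between 227 bases before the start and base 36 after it.

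Setting the forms of each pair of related genes against each other shows where the condensin I and condensin II subunits parted. For the kleisins, NCAPH less NCAPH2, the difference of the log2 differences was -2.12 against siCTR (-2.28 to -1.95 over pairs of arrays) and -2.05 against NO (-2.26 to -1.83). Over all 5 probe sets of NCAPH2 it ran from -2.12 to -1.19 against siCTR and from -2.13 to -0.90 against NO, so NCAPH was the lower of the pair with each of them. For the HEAT-repeat subunits the gaps were smaller. NCAPD2 less NCAPD3 was -0.49 against siCTR (-0.60 to -0.37) and -0.42 against NO (-0.64 to -0.20), and NCAPG less NCAPG2 was -0.44 (-0.64 to -0.23) and -0.48 (-0.56 to -0.40).

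TOP2A less TOP2B was -1.25 against siCTR (-1.51 to -0.99) and -1.40 against NO (-1.62 to -1.18). For the shared arms, SMC2 less SMC4 was -0.03 against siCTR (-0.35 to 0.28) and -0.19 against NO (-0.36 to -0.02). Over the 6 pairs of their probe sets it ran from -0.86 to -0.03 against siCTR and from -1.27 to -0.19 against NO, so the representatives gave the smallest gap. Between siCTR and NO the 5 gaps of representatives were -0.16 to 0.07 in the same measure.

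Taken by complex, the median log2 difference was -1.84 for condensin I against -0.73 for condensin II in the comparison with siCTR, and -1.90 against -0.73 in that with NO. The condensin I median was thus lower by -1.11 and -1.17, while between siCTR and NO the gap was 0.06. The shared SMC subunits had medians of -1.26 and -1.28, between those of the complexes. By their representative probe sets, all 3 condensin I subunits and 1 of 3 condensin II subunits were called. NCAPH2 209718_at, at -1.12 and -1.24, met the rule as well, so the count and the gap depend on the NCAPH2 probe set. The ranges overlapped, since NCAPG2 (-1.40) was lower than NCAPD2 (-1.22), and with 3 genes a complex and 1 pool a group no test of the difference between complexes was run. Among genes whose highest pool mean exceeded 458.4, the 75th percentile of all values, NCAPH2 drops out and the gap shrinks to -0.77 and -0.83.

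**Figure D4:**
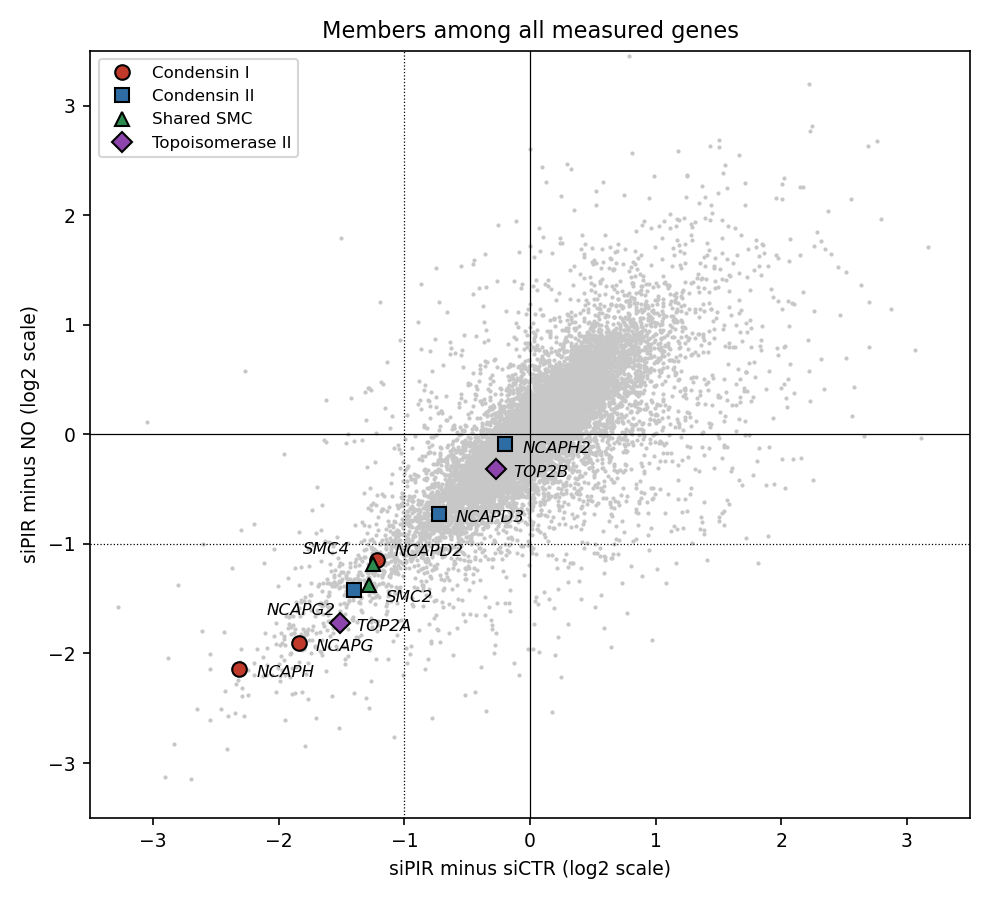
Log2 difference from siCTR (horizontal) and from NO (vertical) for the 13053 measured genes (grey), with the members by complex; 2 genes lie outside the axes, and dotted lines mark 2-fold lower. By representative probe set NCAPH and NCAPG are lowest among the members, and NCAPH2 and TOP2B lie nearest to 0. Both axes share the siPIR pool.

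By their representative probe sets the members differed little between the control pools. Between siCTR and NO 0 members were called, while 2.40% of measured genes were called lower and 0.996% higher. Among the representatives the largest size was 0.20, for TOP2A, and the arrays of the pools were separate for TOP2A and TOP2B, both lower in siCTR, while 24.9% of measured genes had separate arrays with siCTR lower and 28.1% with siCTR higher. Other probe sets differed more or the other way with separate arrays: SMC2 213253_at by -0.53, NCAPH2 40640_at, a dim one, by 0.78, SMC4 201663_s_at by 0.19 and TOP2A 201292_at by 0.15.

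Counted by probe set, 11 of the 19 above the detection cut were called lower than both controls (3.11% of 25089 measured probe sets were), and for all 20 the log2 difference was negative in both comparisons. The 11 come from 7 genes that were called by their representative and from NCAPH2 through 209718_at. Probe sets of 1 gene read the same RNA and are not replicates.

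A fit across pools was also made with limma on the 3 pool means. It set siPIR against the average of both controls and had 1 residual degree of freedom. After Benjamini-Hochberg adjustment over all 13053 measured genes limma called 0 members and 0.00% of genes lower at 0.05, and the adjusted p of the members ran from 0.135 to 0.637. At an unadjusted p under 0.05, limma had 8 members lower, against 10.9% of measured genes. The largest estimate was that of NCAPH, -2.23 ± 0.176 (SE, adjusted p = 0.135 in limma). When only the 8271 bright genes were fitted, limma called 8 of 9 members lower (13.1% of bright genes), with TOP2B not called (adjusted p = 0.191) and NCAPH2 not among the genes fitted. NCAPH, NCAPG and NCAPD2 had siPIR means of 200.6, 423.25 and 447.15 and passed the cut of 458.4 only through the control pools, so the cut itself favours a lower siPIR value for them. The siPIR side of either fit is 1 pool. The fit over all measured genes did not call PIR, the target of the siRNA, either. Its lack of calls therefore says nothing particular to the members. The count among bright genes supports nothing here.

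Other genes of mitotic chromosome structure were read from a list. Of 16 measured regulators and partners of condensin, 11 met the rule as lower and 0 as higher (3.20% and 1.47% of all measured genes did), with median log2 differences of -1.59 against siCTR and -1.33 against NO. NUSAP1, a microtubule and chromosome binding protein of the spindle, differed by -1.81 and -1.78. KIF4A, the chromokinesin that works with condensin I on the chromosome axis, differed by -1.70 and -1.81. BIRC5 (survivin), which targets the chromosomal passenger complex, differed by -1.70 and -1.61, and CCNB1, the cyclin that activates the mitotic kinase CDK1, by -1.60 and -1.59.

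The 5 not called included genes close to 0. CSNK2A1, a catalytic subunit of casein kinase 2, differed by -0.14 and -0.02, AKAP8, an anchoring protein that binds chromatin and condensin, by -0.02 and -0.25, and PHF8, a histone demethylase, by 0.22 and 0.04. AKAP8L, a relative of AKAP8, was on the other side, at 0.72 and 0.74.

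Of 11 other topoisomerases and partners, 3 were called lower and 0 higher (3.20% and 1.47% of all measured genes were), with medians of -0.32 and -0.32. All 3 act in the dissolvasome that takes apart joined DNA molecules: RMI2 differed by -1.93 and -1.76, BLM, its helicase, by -1.07 and -1.22, and RMI1 by -1.11 and -1.04. Their enzyme TOP3A was at -0.32 and -0.15. Against siCTR alone 4 of the 11 were called lower (4.21% of measured genes were), and against NO alone 3 (5.40%). TOPBP1, at -1.11 and -0.98, was called against siCTR and just missed 2-fold against NO. TOP1, which cuts 1 strand and relaxes supercoils, was at -0.14 and -0.04, and its mitochondrial form TOP1MT at 0.18 and -0.04.

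Of 5 other SMC proteins 0 were called lower against both controls (3.20% of measured genes were), with medians of -0.62 and -0.62. Against siCTR alone 0 were called lower (4.21% of measured genes were), and against NO alone 2 (5.40%). The cohesin arm SMC3 came nearest, at -0.97 and -1.04, and SMC6, of the SMC5/6 complex, was the smallest, at -0.27 and -0.27. By representative probe set SMC2 and SMC4, at -1.19 to -1.38, were lower than each of the 5 against siCTR, but SMC5 against NO (-1.19) was level with SMC4. Other SMC4 probe sets changed this order. Against NO, 201663_s_at (-0.84) and the dim 215623_x_at (-1.03) lay above SMC3 and SMC5. Against siCTR 215623_x_at (-0.72) again lay above SMC3 and SMC5. The difference between condensin arms and other SMC proteins was not tested.

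**Figure D5:**
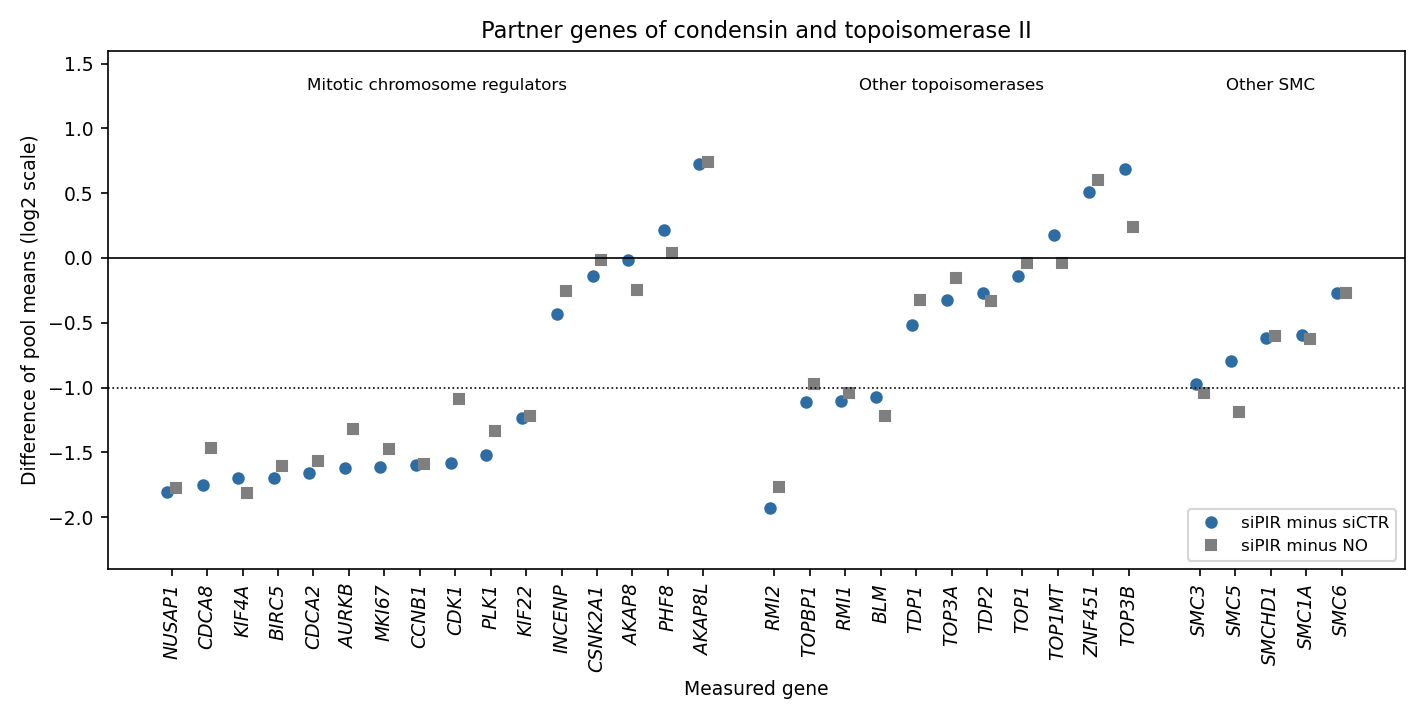
Difference of pool means on the log2 scale for the measured genes of the 3 partner lists, siPIR minus siCTR as blue circles and siPIR minus NO as grey squares; the dotted line marks 2-fold lower. Of the 16 mitotic regulators 11, from NUSAP1 to KIF22, lie below the dotted line and 5, from INCENP to AKAP8L, above it, while most other topoisomerases and SMC proteins lie above it.

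The genes most like NCAPH and TOP2A over the 6 arrays were sought by the Euclidean distance of log2 signals centred on each gene's mean, among 8270 other bright genes. Nearest to NCAPH were DLGAP5, a spindle protein (distance 0.342, log2 differences -2.10 and -2.10), UBE2T, a ubiquitin-conjugating enzyme (0.361, -2.18 and -1.96), and B4GALT4, a galactosyltransferase (0.375, -2.25 and -2.15). Nearest to TOP2A were a probe set annotated MIR1244-3 (0.128), the exonuclease EXO1 (0.221, -1.62 and -1.79) and the centromere gene CENPH (0.221, -1.51 and -1.55). The first and last of these rest on probe sets marked as binding several transcripts. With 3 pools, nearness means only a similar step between siPIR and the controls.

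Signs of RNA quality and of other cell types were read in the same arrays. For ACTB, the 3′ probe set over the 5′ probe set gave 1.13 and 1.13 in siPIR, 1.26 and 1.23 in siCTR, and 1.23 and 1.27 in NO. The summed signal of the 6 fibroblast markers was 23954.1 and 23044.4 in siPIR, 14594.2 and 15808.1 in siCTR, and 12737.6 and 12625.6 in NO. Nearly all of it was COL1A2, and COL3A1, DCN and PDGFRA were under the detection cut. LUM went the other way, with 108.3 and 106.7 in siPIR, 177.1 and 122.7 in siCTR, and 176.5 and 157.1 in NO. The siPIR arrays of COL1A1 overlapped those of siCTR and lay above those of NO. For 4 leukocyte markers the sum was 339.3 and 363.0 in siPIR, 203.2 and 185.2 in siCTR, and 163.8 and 198.8 in NO. Only CD14 was measured among them, with PTPRC, CD3E and LYZ under the cut. For 5 keratinocyte markers the sum was 2646.1 and 2767.0 in siPIR, 3715.8 and 3303.5 in siCTR, and 3253.8 and 3413.2 in NO. That sum was lower in siPIR, and only KRT10 was measured. Of 5 endothelial markers 2 were measured, and their list's sum in siPIR lay above siCTR and below NO. The part of these shifts in the differences of the condensin and topoisomerase genes was not tested.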

How the data were processed

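Total RNA of WM-266.4 cells was measured on 6 arrays, 2 for each of 3 RNA pools. The authors deposited linear intensity values per probe set, made with GCOS, the Affymetrix array software, per the submitters' processing notes; no version or setting was recorded in the sources at hand. After trimming 2% of probe sets at either end, each array averaged 500.1, so total RNA per cell is not visible. All 6 columns were matched to samples and 0 were left over.

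Values were taken as log2(value + 5.4), where 5.4 is the 10th percentile over all arrays, and arrays of a pool were averaged. Fold changes on this scale understate those of dim genes. Of 54675 probe sets, 41097 had 1 gene and 1801 had several, while 11777 had no entry in the platform table; 99.9% of the first matched RefSeq (GRCh38.p14) by Entrez identifier. The fit across pools used limma 3.58.1 in R 4.3.3, tested on simulated data. All 10 members are named. Of each partner list, the 4 called genes with the largest smaller difference and up to 3 uncalled ones with the smallest differences were named; genes beyond these were chosen after their values were seen. The members, gene lists and motifs were chosen with earlier results of these data known. Pseudocount, detection cut, quantile normalization, choice of probe set, size of a call and each array were varied.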

Additional observations from a re-analysis of the deposited data

How the results depend on the processing

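The count of called members stayed 7 under another pseudocount, detection cut or quantile normalization and with any array left out (7 to 7). It was 6 as the mean over probe sets and 8 at 1.5-fold. Without _x_at and _s_at probe sets it was 6 of 8: NCAPD2 and NCAPG2 had no probe set left, and NCAPH2 was called beside NCAPG, NCAPH, SMC2, SMC4 and TOP2A. Of 381 recomputed member differences, 346 stayed within the spread between arrays and 35 moved beyond it. Many of the 346 could not move. Another detection cut, or leaving out an array of the pool not compared, leaves a member's value as it was. Averaging does the same for a gene with 1 probe set. In all, 0 called ones reversed and 3 changed their call. These were SMC4 when its probe sets were averaged (-0.997, siCTR), and NCAPH2 against each control without _x_at and _s_at probe sets (-1.12 and -1.24). Of the values that moved, the fit across pools called 8 members at a detection cut of the 75th percentile and 0 in every other setting; 3 of the 8 passed that cut only through the control pools. At that cut the gap between condensin I and II was -0.77 against siCTR and -0.83 against NO, and the members' median against NO was -1.38. Without _x_at and _s_at probe sets, 6 of 11 member probe sets were called, the members' medians were -1.41 and -1.53, and the gap against NO was -1.04. With an array left out the gap ran from -1.21 to -1.01 against siCTR and from -1.25 to -1.09 against NO, called member probe sets from 10 to 13 and called partners from 12 to 15. The other counts kept within 1.5 times. No paired analysis was possible because the arrays that share a number are repeat hybridisations of different pools, and each group is 1 pool. Some dim probe sets of NCAPH2 had array spreads as large as a difference, as 227076_at against siCTR (standard deviation 1.03, difference -0.39). For 209718_at the standard deviation (0.43) was below both differences (-1.12 and -1.24). Pools without biological replicates limit every statement here.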

Other observations

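Some genes of the partner lists differed between the control pools by more than the representative probe set of any member did, though SMC2 213253_at (-0.53) differed more than they. CDK1, the kinase that starts mitosis, had signals of 3035.3 and 3099.6 in siPIR, 8877.3 and 9488.8 in siCTR, and 7421.5 and 5719.4 in NO. The siCTR and NO arrays were separate, with a log2 difference of 0.49 (siCTR minus NO). The siPIR pool was at -1.58 relative to siCTR and -1.09 relative to NO, so the size of its difference depends on the control. TOP3B, a topoisomerase that also acts on RNA, was at -0.45 in siCTR relative to NO with separate arrays, and SMC5 at -0.39 with overlapping arrays. None of the 3 met the 2-fold rule between the control pools.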
